A study of Mus musculus with 48 samples.

Results

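Xirp1, Xirp2, Ankrd1, Ankrd2, Ankrd23 and Csrp3 encode muscle proteins that bind actin filaments, titin or the Z-disc and that are linked to the response of muscle to stretch. These 6 genes were taken by name from the deposited read counts, and each was found once among 31920 genes in the tables of whole left ventricle and once among 31741 genes in the table of isolated cells. They had been chosen with measured values of these same libraries known, so their levels and fold changes are given as a description. Further below, it is stated which of them were past the adjusted p threshold. Those calls describe the choice of genes and are no independent test. The study took heart RNA from wild type (WT) FVB mice and from FVB mice with PLNR9C. This mutation, known to cause dilated cardiomyopathy, lies in phospholamban, an inhibitor of the pump that returns calcium to the sarcoplasmic reticulum. Mice of each genotype received vehicle or JQ1 at 50 mg/kg, JQ1 being an inhibitor of the BET bromodomain proteins that read acetylated histones. Whole left ventricle was sampled at 8 weeks of age, which the labels place before dilated cardiomyopathy, and at 20 weeks, and pooled cardiomyocytes and pooled non-myocytes were sampled at 16 weeks. Every one of the 4 sample types therefore held 4 groups (WT vehicle, WT JQ1, PLNR9C vehicle and PLNR9C JQ1) of 3 libraries, 48 libraries in all. Per the design text the libraries of a group are separate biological replicates. How many animals entered a cell pool, and whether pools with the same replicate number shared animals, was not stated in the labels or the files. Reads of the phospholamban gene cannot tell mutant and normal RNA apart, and the genotype rests on the labels.

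XIRP1 and XIRP2, the Xin repeat proteins, bundle actin filaments and in heart muscle lie mainly at the intercalated disc, where neighbouring cardiomyocytes pull on each other. Ankrd1 (cardiac ankyrin repeat protein, CARP), Ankrd2 (Arpp) and Ankrd23 (DARP) form the muscle ankyrin repeat family, which binds the N2A segment of titin, the elastic filament of the sarcomere, and can also enter the nucleus. Csrp3 encodes muscle LIM protein, a Z-disc adaptor whose loss causes dilated cardiomyopathy in mice. Ankrd1 is a widely used target gene of the YAP and TEAD transcription factors and is induced in overloaded heart, whereas Ankrd2 is known mainly from slow skeletal muscle.

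The libraries held 16984138 to 27086694 reads in genes at 8 weeks, 18415351 to 26730918 at 20 weeks, 10249780 to 13146653 in the cardiomyocyte pools and 10041094 to 11815003 in the others. Levels are given as CPM, counts per unit of library size scaled within a sample type. Comparisons between genes or between sample types use RPKM, reads per kilobase of gene and per unit of depth, which carries no such scaling. All 6 genes passed the filter on low counts in every sample type, which left 15501, 15971, 14142 and 15347 genes to test. The 9 listed cardiomyocyte markers (among them Tnnt2, Myh6 and Ttn) were above 0 in each of the 16 groups, and their summed RPKM ran from 29420 to 30800 in WT vehicle cardiomyocytes against 1376 to 2015 in WT vehicle non-myocytes. The non-myocyte pools thus carried cardiomyocyte transcripts in every group. In whole ventricle the same sum was 23690 to 26220 in WT vehicle and 18650 to 19480 in PLNR9C vehicle at 20 weeks. In bulk tissue, fewer cells of a type and less RNA per cell cannot be told apart.

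On GRCm38, as the deposited coordinates give them, Xirp1 lies on the minus strand of chromosome 9 (120013755 to 120023598) and Xirp2 on the plus strand of chromosome 2 (67194756 to 67526606). Ankrd1 (minus strand, 36111965 to 36119844) and Ankrd2 (plus strand, 42036038 to 42045110) are both on chromosome 19. Ankrd23 (chromosome 1, minus strand, 36530534 to 36539358) overlaps Ankrd39 on the same strand, so reads in the shared part cannot be assigned with certainty, although Ankrd39 held only 51 to 280 reads in any library. Csrp3 is on the minus strand of chromosome 7 (48830398 to 48848051). RefSeq promoter entries on GRCm38.p6 matched 5 of the 6 genes by symbol. The 250 bases before the start of Xirp2 (chr2:67445752-67446001, plus strand), Ankrd1 (chr19:36119845-36120094, minus strand) and Ankrd2 (chr19:42035777-42036026, plus strand) are printed from 5′ to 3′ because these 3 genes varied together across the libraries. Capitals mark a match to the M-CAT element CATTCC, to the TATA box TATAAA or to the MEF2 element.
Xirp2: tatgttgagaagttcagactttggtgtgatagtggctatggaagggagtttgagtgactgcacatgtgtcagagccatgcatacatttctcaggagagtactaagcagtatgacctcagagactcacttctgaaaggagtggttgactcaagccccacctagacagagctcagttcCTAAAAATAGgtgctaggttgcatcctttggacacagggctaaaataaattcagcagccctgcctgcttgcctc
Ankrd1: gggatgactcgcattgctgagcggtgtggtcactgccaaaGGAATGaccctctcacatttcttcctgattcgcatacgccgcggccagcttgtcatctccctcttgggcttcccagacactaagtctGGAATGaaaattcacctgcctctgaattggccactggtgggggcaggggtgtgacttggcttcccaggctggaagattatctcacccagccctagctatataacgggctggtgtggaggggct
Ankrd2: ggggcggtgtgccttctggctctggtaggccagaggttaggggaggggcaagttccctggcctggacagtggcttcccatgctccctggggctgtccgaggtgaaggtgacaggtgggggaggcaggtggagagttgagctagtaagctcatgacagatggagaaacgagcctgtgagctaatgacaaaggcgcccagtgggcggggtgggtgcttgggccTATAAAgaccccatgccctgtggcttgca
Both strands were searched for CATTCC, for TATAAA, for the E-box CANNTG and, by name, for the MEF2 and CArG elements. A match may overlap another. The Ankrd1 window held the M-CAT element, a site read by TEAD factors, at 2 places whose first bases lie 210 and 123 bases before the start. Both are on the complementary strand, so the capitals read GGAATG. Of 32851 RefSeq windows of the same length, 12.6% held this element at least once and 1.02% held it 2 or more times. In Xirp2 the window held 1 MEF2 match, 74 bases before the start, against 2.92% of all windows. The RefSeq start of Xirp2 (67446002) lies inside the deposited span of the gene. The Ankrd2 window held TATAAA 29 bases before the start (12.4% of all windows) and 3 E-boxes. The Xirp2 window held 2 E-boxes and the Ankrd1 window 1, and 66.2% of all windows held at least 1. For Ankrd23 and Csrp3 the reference gives 2 starts each. One Ankrd23 window held 1 M-CAT match, at 120 bases, and each Csrp3 window held 4 E-boxes. No CArG match was found in the windows of these 5 genes (1.47% of all windows). A match describes letters and is not a measured binding site.

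**Figure D1:**
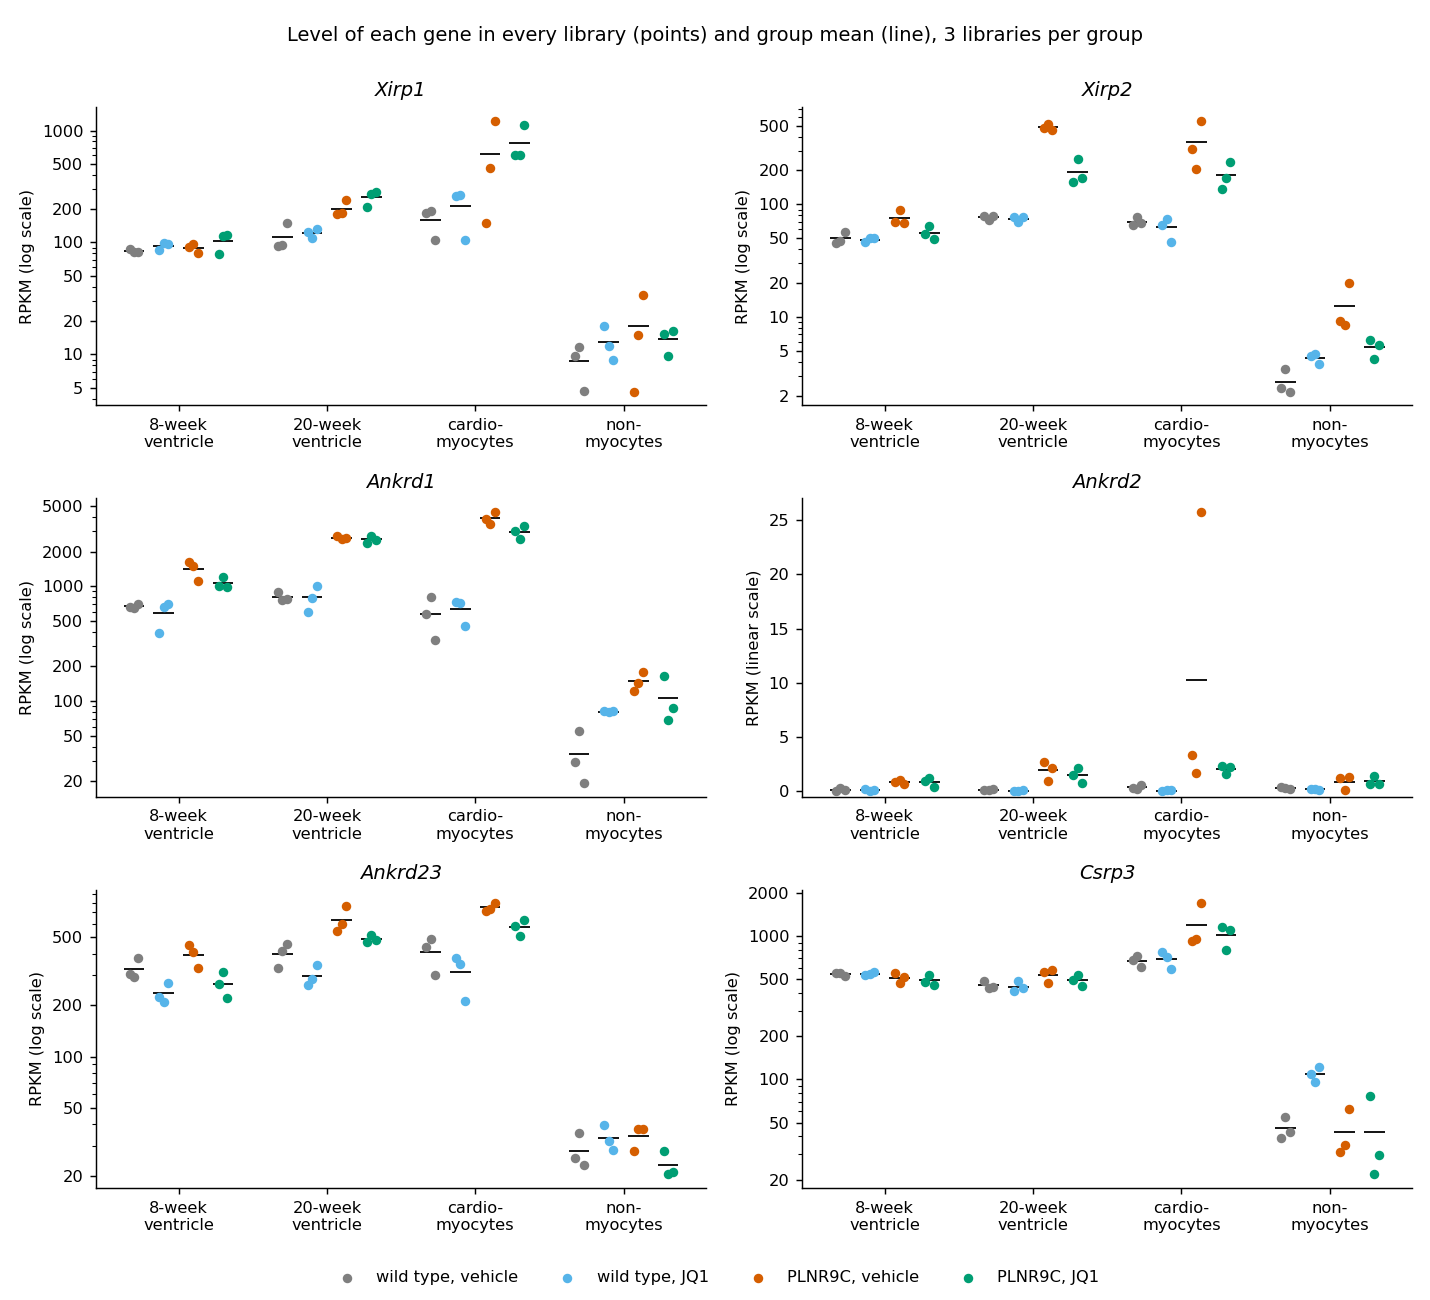
RPKM (log axis, linear for Ankrd2) of each gene in all 48 libraries, by sample type along the horizontal axis and by group in colour; each point is 1 library and each line a group mean. At 20 weeks Xirp2 was highest in PLNR9C vehicle (mean 483 RPKM) and lower with JQ1 (194.5 RPKM), while the Ankrd1 libraries of the same groups lay at similar heights.

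Xirp2, which encodes the larger Xin repeat protein, had the widest range of the 5 genes with many reads in the 20-week ventricle. Its level was 1051, 954 and 1014 CPM in WT vehicle (1006 ± 49.4, SD, n = 3) and 1089, 980.1 and 1076 CPM in WT JQ1 (1048 ± 59.5). In PLNR9C vehicle it was 5102, 5775 and 5027 CPM (5301 ± 412), and in PLNR9C JQ1 1820, 2880 and 1998 CPM (2233 ± 568). The lowest PLNR9C vehicle library thus lay above every JQ1 library, and the lowest PLNR9C JQ1 library above every WT library. PLNR9C JQ1 was not fitted against WT for any gene, and no share of all genes was counted for it. Its place above WT describes these libraries only. The genotype difference with vehicle was 2.397 ± 0.14 (log2, SE), a 5.27-fold higher level in PLNR9C. With JQ1 the PLNR9C level was lower by a log2 difference of -1.25 ± 0.13, that is 0.421 times the vehicle level, and stayed above WT. In WT the log2 difference with JQ1 was 0.06 ± 0.13, and it was -0.05 ± 0.14 with unscaled library sizes, so no direction is given. The JQ1 difference in PLNR9C minus that in WT was -1.31 ± 0.19. Leaving out each library in turn kept the JQ1 difference in PLNR9C between -1.12 and -1.47.

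At 8 weeks, the stage the labels place before dilated cardiomyopathy, the group means of Xirp2 had the same order, PLNR9C vehicle first and PLNR9C JQ1 next, with smaller differences. Xirp2 was at 584, 586 and 702 CPM in WT vehicle and at 806, 1011 and 786 CPM in PLNR9C vehicle, with no overlap (log2 difference 0.48 ± 0.10). In PLNR9C JQ1 it was at 684, 770.2 and 631 CPM, all below the PLNR9C vehicle libraries (log2 difference -0.32 ± 0.10) and overlapping WT vehicle. With JQ1 in WT it was at 594, 641 and 657 CPM, which overlapped WT vehicle. Without PLNR9C vehicle replicate 2 the Xirp2 differences at this age were 0.35 ± 0.087 for genotype and -0.195 ± 0.088 for JQ1 in PLNR9C.

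Isolated cardiomyocytes at 16 weeks also held more Xirp2 RNA in PLNR9C, with a wide spread between pools. The WT vehicle pools had 831, 955 and 892 CPM and the PLNR9C vehicle pools 3306, 2306 and 7053 CPM, a log2 difference of 2.24 ± 0.37. With JQ1 the PLNR9C pools had 1685, 1824 and 2907 CPM and overlapped the vehicle pools (log2 difference -0.98 ± 0.36). Replicate 3 of PLNR9C vehicle was the highest pool of its group for all 6 genes, while its cardiomyocyte marker sum (26490 RPKM) and its skeletal muscle marker sum (0.651 RPKM) were the lowest of the group. Without that pool the genotype difference of Xirp2 was 1.65 ± 0.25 and the JQ1 difference in PLNR9C was -0.39 ± 0.26, so the size of the cardiomyocyte JQ1 difference rested largely on 1 pool. WT JQ1 pools had 896, 1027 and 639 CPM and overlapped WT vehicle (log2 difference -0.06 ± 0.35).

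Xirp1, its shorter relative, had higher group means with JQ1 in PLNR9C ventricle, where those of Xirp2 were lower. In the 20-week ventricle it was at 591, 582 and 919.8 CPM in WT vehicle (698 ± 192), at 905, 965 and 1258 CPM in PLNR9C vehicle (1043 ± 189) and at 1123, 1465 and 1556 CPM in PLNR9C JQ1 (1381 ± 228). WT and PLNR9C vehicle overlapped through 1 WT library, and the PLNR9C libraries with and without JQ1 overlapped too. The log2 differences were 0.58 ± 0.20 for genotype and 0.41 ± 0.20 for JQ1 in PLNR9C, the latter opposite in sign to that of Xirp2. WT JQ1 libraries had 830, 725 and 871 CPM (log2 difference to WT vehicle 0.21 ± 0.20). At 8 weeks the PLNR9C vehicle libraries (437 to 521 CPM) and the WT vehicle libraries (479.5 to 529.6 CPM) overlapped, with a genotype difference of -0.04 ± 0.12 that was 0.09 ± 0.13 with unscaled library sizes. JQ1 differences at 8 weeks were 0.32 ± 0.12 in PLNR9C and 0.21 ± 0.12 in WT, both with overlapping libraries.

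Cardiomyocyte pools varied widely in Xirp1. PLNR9C vehicle pools had 764, 2458 and 7380 CPM, which overlapped the WT vehicle pools (1098, 1119 and 652 CPM) and the WT JQ1 pools (1673, 1745 and 681 CPM). The PLNR9C JQ1 pools had 3562, 3022 and 6456 CPM. The genotype difference was 1.89 ± 0.68, and 0.75 ± 0.54 without PLNR9C vehicle replicate 3. The JQ1 difference in PLNR9C was 0.30 ± 0.65, and 1.43 ± 0.57 without that pool. Both sizes thus depended on 1 pool.

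**Figure D2:**
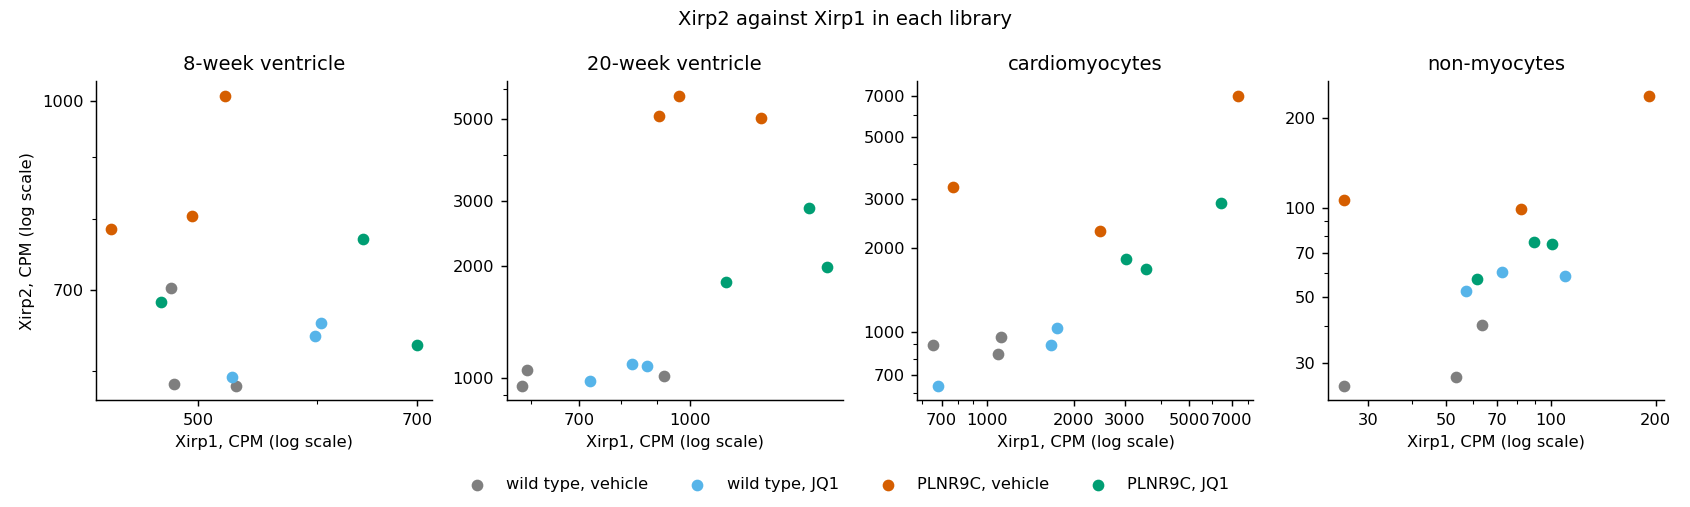
Xirp2 against Xirp1 in CPM (both axes log) in 4 panels, 1 per sample type; each point is 1 library, coloured by group. In the 20-week ventricle the PLNR9C vehicle libraries lie at 5027 to 5775 CPM of Xirp2 and the PLNR9C JQ1 libraries at 1820 to 2880 CPM, while their Xirp1 ranges overlap.

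Per length, the order of the Xin genes differed with the group. Xirp1 stood above Xirp2 in the 20-week WT vehicle ventricle (113 and 76.7 RPKM) without overlap. In PLNR9C vehicle of the same age Xirp2 (483 RPKM) stood above Xirp1 (201 RPKM), again without overlap. With JQ1 in PLNR9C the levels of Xirp1 (254 RPKM) and Xirp2 (194.5 RPKM) overlapped. Over 36 ventricle and cardiomyocyte libraries, each gene centred within its sample type, the log2 CPM of Xirp1 and Xirp2 correlated with r = 0.581. Within the sample types r was -0.181 at 8 weeks, 0.554 at 20 weeks and 0.697 in cardiomyocytes. The points of each value share genotype, drug and library depth, and no p is given.

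Ankrd1, the ankyrin repeat protein of overloaded heart, was higher in PLNR9C vehicle than in WT vehicle in all 4 sample types. In ventricle and cardiomyocytes it also lay above every WT library with JQ1 in PLNR9C, a comparison that was not fitted. In the 20-week ventricle it was at 1707, 1419 and 1426 CPM in WT vehicle (1517 ± 165) and at 4180, 4097 and 4139 CPM in PLNR9C vehicle (4139 ± 41.8), a log2 difference of 1.45 ± 0.14 or 2.73-fold. PLNR9C JQ1 libraries had 3937, 4440 and 4179 CPM (4185 ± 252), on both sides of the vehicle libraries. The JQ1 difference in PLNR9C was 0.02 ± 0.14, and -0.05 ± 0.14 with unscaled library sizes. WT JQ1 libraries had 1212, 1604 and 2022 CPM and overlapped WT vehicle.

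Before dilated cardiomyopathy, at 8 weeks, Ankrd1 was already at 2656, 2440 and 1831 CPM in PLNR9C vehicle against 1220, 1127 and 1251 CPM in WT vehicle, with no overlap and a 1.93-fold level (log2 difference 0.95 ± 0.22). With JQ1 the PLNR9C libraries had 1792, 2050 and 1795 CPM, which overlapped vehicle (log2 difference -0.30 ± 0.22). WT JQ1 libraries had 729, 1223 and 1317 CPM, on both sides of WT vehicle (log2 difference -0.14 ± 0.22). Cardiomyocyte pools had 1037, 1427 and 633 CPM in WT vehicle and 5857, 5566 and 8036 CPM in PLNR9C vehicle, a log2 difference of 2.65 ± 0.30 or 6.28-fold. Among the 5 genes with many reads this was the largest genotype fold in cardiomyocytes. Without PLNR9C vehicle replicate 3 the genotype difference was 2.47 ± 0.31. PLNR9C JQ1 pools had 5316, 3914 and 5809 CPM and overlapped the vehicle pools (log2 difference -0.37 ± 0.28, and -0.19 ± 0.30 without that replicate). WT JQ1 pools had 1411, 1404 and 891 CPM and overlapped WT vehicle.

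Ankrd2, the skeletal muscle relative, was close to undetected in WT heart and present at low level in PLNR9C. Reads in the 20-week ventricle were 2, 2 and 5 in WT vehicle, 1, 0 and 2 in WT JQ1, 77, 21 and 44 in PLNR9C vehicle and 44, 62 and 20 in PLNR9C JQ1. Neither PLNR9C group overlapped either WT group, and PLNR9C JQ1 was not fitted against WT. At 8 weeks the reads were 0, 8 and 2 in WT vehicle against 22, 22 and 12 in PLNR9C vehicle, and with JQ1 they were 5, 1 and 3 against 23, 37 and 7. The fitted genotype differences were 2.35 ± 0.65 at 8 weeks and 3.74 ± 0.59 at 20 weeks, and with so few reads in WT they are loosely set. At 8 weeks the value was 3.84 ± 0.88 without WT vehicle replicate 2. In cardiomyocytes the reads were 4, 3 and 7 in WT vehicle and 38, 23 and 335 in PLNR9C vehicle, the 335 being in replicate 3. The genotype difference there was 4.71 ± 1.07 with that pool and 2.50 ± 0.51 without it. The JQ1 difference in PLNR9C moved from -2.39 ± 0.85 to -0.18 ± 0.42 when it was left out. PLNR9C JQ1 pools had 30, 20 and 32 reads. With JQ1 in WT the fitted differences moved with single libraries, at 8 weeks from -0.18 to 1.31 without WT vehicle replicate 2 and to -0.82 without WT JQ1 replicate 1, so no direction is given. Non-myocyte pools had 5, 4 and 2 reads in WT vehicle, 2 in each WT JQ1 pool, 14, 1 and 15 in PLNR9C vehicle and 8, 17 and 7 in PLNR9C JQ1, with both vehicle groups overlapping.

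Since Ankrd2 is known from skeletal muscle, the 9 skeletal muscle markers are given beside it. Their summed RPKM at 20 weeks was 0.557 to 0.954 in WT vehicle and 1.63 to 1.69 in PLNR9C vehicle. Of the 4 markers that could be tested 1 rose with genotype and 0 fell (edgeR quasi-likelihood test, Benjamini-Hochberg adjustment), beside 23.3% of all genes called higher. The median log2 difference of these 4 was -0.35, opposite in sign to the change of the sum. At 8 weeks the sums overlapped (0.762 to 1.19 in WT vehicle and 0.5501 to 1.004 in PLNR9C vehicle). In cardiomyocytes they overlapped too (0.3895 to 0.925 and 0.651 to 1.21). Non-myocyte sums were higher and also overlapped (3.94 to 4.61 in WT vehicle and 3.05 to 4.22 in PLNR9C vehicle). Of the 9 markers, Myog was at 0 in every ventricle and cardiomyocyte library. Myod1 was at 0 in all libraries of the WT JQ1 group at 8 weeks, of the PLNR9C JQ1 group at 20 weeks and of the cardiomyocyte groups other than WT vehicle. Their part in the Ankrd2 level was not tested.

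Ankrd23, which unlike Ankrd2 is plentiful in normal heart, had overlapping ranges in both genotypes in ventricle and a lower group mean with JQ1 at both ages. At 20 weeks it was at 772, 945 and 1035 CPM in WT vehicle (917 ± 134) and at 1011, 1175 and 1473 CPM in PLNR9C vehicle (1220 ± 234), which overlapped (log2 difference 0.41 ± 0.14). JQ1 libraries had 649.9, 700.3 and 844 CPM in WT and 953, 1020 and 989 CPM in PLNR9C, with log2 differences of -0.33 ± 0.14 and -0.30 ± 0.14. Both of these overlapped their vehicle groups. At 8 weeks neither JQ1 group overlapped its own vehicle group: WT had 509, 474 and 620 CPM with JQ1 against 687, 632 and 826 CPM, and PLNR9C had 584, 663 and 489.6 CPM against 909, 815 and 671 CPM. The log2 differences were -0.42 ± 0.16 in WT and -0.46 ± 0.16 in PLNR9C. In cardiomyocytes PLNR9C vehicle pools (1351, 1436 and 1765 CPM) lay above WT vehicle pools (975, 1063 and 683 CPM), with a log2 difference of 0.74 ± 0.23. PLNR9C JQ1 pools (1269, 954 and 1342 CPM) lay below every PLNR9C vehicle pool (log2 difference -0.35 ± 0.23). Without PLNR9C vehicle replicate 3 these differences were 0.62 ± 0.25 and -0.23 ± 0.25. WT JQ1 pools (903, 839 and 512 CPM) overlapped WT vehicle.

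Csrp3, the muscle LIM protein gene, varied least of the 6 in ventricle. The 20-week libraries had 511, 447.5 and 452 CPM in WT vehicle, 473, 415 and 506 CPM in PLNR9C vehicle, and 409.6 to 538 CPM in the JQ1 groups. The genotype difference at 20 weeks was -0.02 ± 0.09, and 0.24 ± 0.09 with unscaled library sizes, so its sign depended on the scaling. At 8 weeks PLNR9C vehicle (505, 422 and 471 CPM) lay below WT vehicle (563, 540.2 and 514 CPM), a log2 difference of -0.21 ± 0.07 that was -0.09 with unscaled library sizes. JQ1 differences in ventricle were between -0.06 and 0.07 and changed sign with unscaled library sizes in PLNR9C at 8 weeks and in WT at 20 weeks. In cardiomyocytes the pools had 680.3, 709 and 627 CPM in WT vehicle and 783, 841 and 1700 CPM in PLNR9C vehicle (log2 difference 0.72 ± 0.27), the highest again being replicate 3. PLNR9C JQ1 pools had 1123, 671 and 1049 CPM, on both sides of the lower vehicle pools. The JQ1 difference there was -0.23 ± 0.27 with all pools and 0.22 ± 0.20 without that replicate, and the genotype difference was 0.27 ± 0.20 without it. WT JQ1 pools had 823, 782 and 642 CPM and overlapped WT vehicle.

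**Figure D3:**
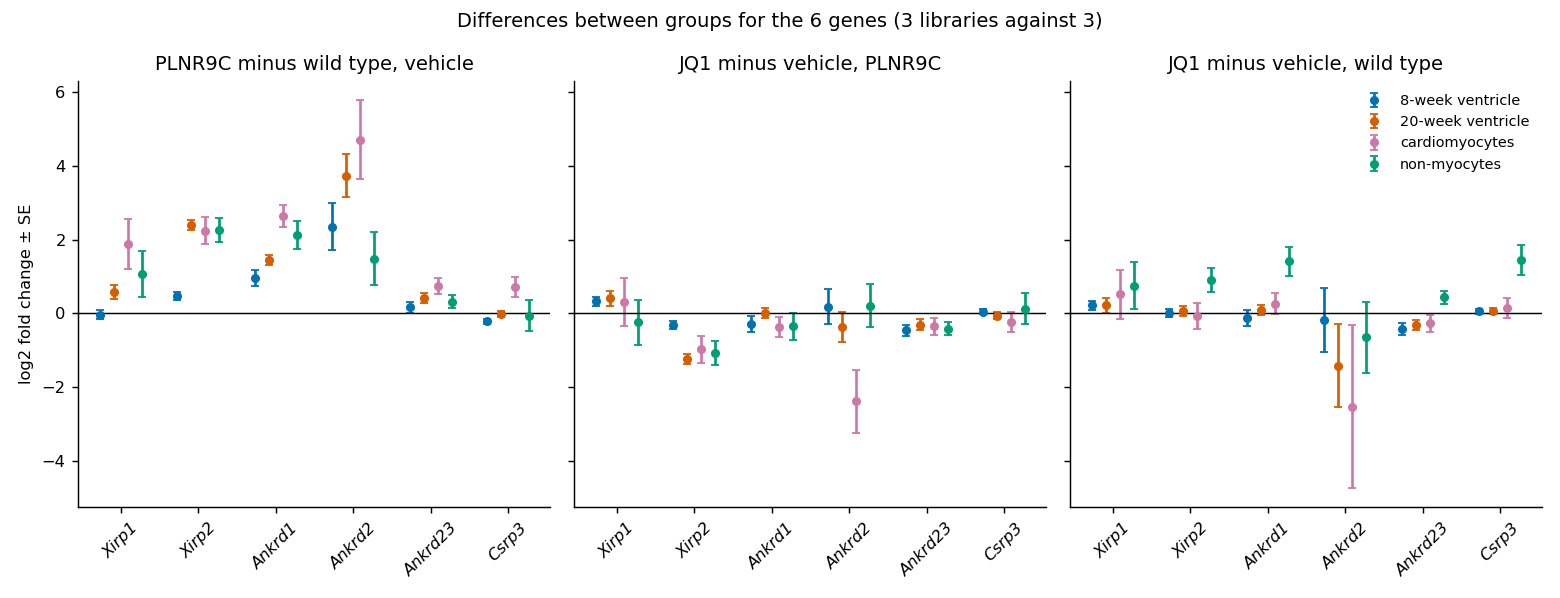
Log2 differences of the 6 genes with bars of 1 SE in 3 panels (PLNR9C minus WT with vehicle, JQ1 minus vehicle in PLNR9C, JQ1 minus vehicle in WT), with the 4 sample types as separate points. Xirp2 and Ankrd1 lie above 0 for genotype in each sample type, and Xirp2 lies below 0 for JQ1 in PLNR9C, at -1.25 in the 20-week ventricle.

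Counted together, all of the 6 genes except Csrp3 (5 genes) were higher in PLNR9C vehicle past an adjusted p of 0.05 in the 20-week ventricle and none was lower, where 23.3% of all genes tested were called higher and 21.4% lower. At 8 weeks 3 (Xirp2, Ankrd1 and Ankrd2) were past it as higher and 1, Csrp3, as lower, beside 7.86% and 6.5% of all genes. In cardiomyocytes 4 (Xirp2, Ankrd1, Ankrd2 and Ankrd23) were higher (14.3% of all genes) and none lower (11.8%). In non-myocytes 2 (Xirp2 and Ankrd1) were higher (10.3%) and none lower (8.32%). For JQ1 in PLNR9C Xirp2 was lower past the threshold at 8 weeks (17.7% of all genes), at 20 weeks (16.1%) and in non-myocytes (19.5%), Ankrd23 at 8 weeks only, and none of the 6 in cardiomyocytes (4.33%). None of the 6 was called higher there, beside 15.5%, 15.9%, 6.14% and 16.7% of all genes. In WT, JQ1 called none of the 6 in the 8-week ventricle (14.3% of all genes higher and 15.4% lower), the 20-week ventricle (12.3% and 14.9%) or cardiomyocytes (1.7% and 1.93%), and Ankrd1 and Csrp3 as higher in non-myocytes (18% of all genes). Counted by libraries that did not overlap, Xirp2, Ankrd1 and Ankrd2 were higher in PLNR9C vehicle at 8 weeks (16.7% of all genes) and at 20 weeks (27.8%), and Csrp3 lower at 8 weeks (15.9%). All but Xirp1 were higher in cardiomyocytes (24.4%), and Xirp2 and Ankrd1 in non-myocytes (18.1%). With JQ1 in PLNR9C, Xirp2 was lower at 8 weeks (23.5%), at 20 weeks (24%) and in non-myocytes (25%), and Ankrd23 at 8 weeks and in cardiomyocytes (13.7%). With JQ1 in WT, Ankrd23 was lower at 8 weeks (22.2%), Ankrd2 in cardiomyocytes at 0 to 1 against 3 to 7 reads (15.6%), and Xirp2, Ankrd1 and Csrp3 higher in non-myocytes (24%). The JQ1 difference in PLNR9C minus that in WT was past the threshold for Xirp2 at 20 weeks (0.357% of all genes) and for none of the 6 in the 8-week ventricle (0.00645%) or the cell fractions (0% in both). The genes were chosen on these values, so the counts describe the choice. The genotype and JQ1 differences share the PLNR9C vehicle libraries, and the genotype and WT JQ1 differences share the WT vehicle libraries.

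Ranked over the 16 groups by RPKM, Ankrd1, Ankrd2, Ankrd23 and Csrp3 all had their highest mean in PLNR9C vehicle cardiomyocytes, with 3914 ± 468, 10.3 ± 13.4, 750.2 ± 38.8 and 1195 ± 436 RPKM. Without replicate 3 the Csrp3 mean there was 943 RPKM, below PLNR9C JQ1 cardiomyocytes (1016 RPKM), and with it both groups overlapped. The Ankrd2 mean was 2.52 RPKM without that pool. Xirp1 was highest in PLNR9C JQ1 cardiomyocytes (779 ± 303 RPKM) and Xirp2 in the 20-week PLNR9C vehicle ventricle (483 ± 31.3 RPKM). For Ankrd1 the top group stood apart from the next, PLNR9C JQ1 cardiomyocytes (2976 ± 396 RPKM), and 5 of its 15 pairs of neighbouring groups did not overlap. After its top group Xirp2 was followed by PLNR9C vehicle cardiomyocytes (357 ± 179), 20-week PLNR9C JQ1 ventricle (194.5 ± 52.2) and PLNR9C JQ1 cardiomyocytes (182 ± 53.1). That last group stood apart from the next, 20-week WT vehicle ventricle (76.7 ± 3.09), and 4 of the 15 neighbouring pairs of Xirp2 did not overlap. In Xirp1 the only gap among the 15 neighbouring pairs was between WT vehicle ventricle at 8 weeks (83.8 RPKM) and PLNR9C vehicle non-myocytes (17.8 RPKM). Ankrd2 and Ankrd23 had 1 such gap each and Csrp3 had 4. Neighbouring groups often differ in age and sample type as well as in genotype or drug, and no share of all genes was counted for these gaps. Non-myocytes of WT vehicle held the lowest means of Xirp1 (8.68 ± 3.60), Xirp2 (2.65 ± 0.718) and Ankrd1 (34.7 ± 18.4).

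Between genes, Ankrd1 was the most abundant per length in WT vehicle ventricle, at 669 RPKM at 8 weeks and 809 RPKM at 20 weeks. Csrp3 (455 RPKM) and Ankrd23 (400.3 RPKM) followed at 20 weeks and overlapped, and Ankrd2 was last at 0.123 RPKM. In PLNR9C vehicle at 20 weeks Ankrd1 reached 2643 RPKM, with Ankrd23 at 635, Csrp3 at 538 and Xirp2 at 483 RPKM. In WT vehicle cardiomyocytes Csrp3 (673 RPKM) and Ankrd1 (573 RPKM) overlapped.

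In the cell fractions, the 5 genes with many reads were concentrated in cardiomyocytes with ratios in WT vehicle near the range of the cardiomyocyte markers, while Ankrd2 overlapped between the fractions of WT vehicle. In WT vehicle the cardiomyocyte pools held 18.45 times the RPKM of the non-myocyte pools for Xirp1, 26.5 times for Xirp2, 16.5 times for Ankrd1, 14.62 times for Ankrd23 and 14.8 times for Csrp3. The 9 cardiomyocyte markers had ratios of 14.64 to 58.1 with a median of 18.5, and the fibroblast markers a median of 0.0278. These 5 genes were higher in cardiomyocytes without overlap, beside 21% of all genes compared. Ankrd2 had a ratio of 1.21 and overlapped. PLNR9C vehicle gave ratios of 34.55 for Xirp1, 28.5 for Xirp2, 26.25 for Ankrd1, 11.85 for Ankrd2, 21.9 for Ankrd23 and 27.9 for Csrp3, beside markers of 15.4 to 43.05. Without the cardiomyocyte pool of replicate 3 the ratio was 2.91 for Ankrd2 and 17.35 for Xirp1. With replicate 3 left out of both fractions it was 3.98 for Ankrd2 and 31.5 for Xirp1. WT JQ1 gave 16.4 for Xirp1, 14.3 for Xirp2, 7.80 for Ankrd1, 9.40 for Ankrd23 and 6.36 for Csrp3, with markers of 5.26 to 32.7. Ankrd2 had a ratio of 0.317 there, with 0 to 0.085 RPKM in cardiomyocytes below 0.154 to 0.180 RPKM in non-myocytes, where every pool held at most 2 reads and 63% of all genes were likewise lower in cardiomyocytes without overlap. In PLNR9C JQ1 the ratios of the 6 genes ran from 2.26 to 57.0 with a median of 26.4, beside markers of 13.85 to 50.65 with a median of 21.2. The highest, 57.0, was that of Xirp1, whose cardiomyocyte pools held 608, 600 and 1129 RPKM.

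**Figure D4:**
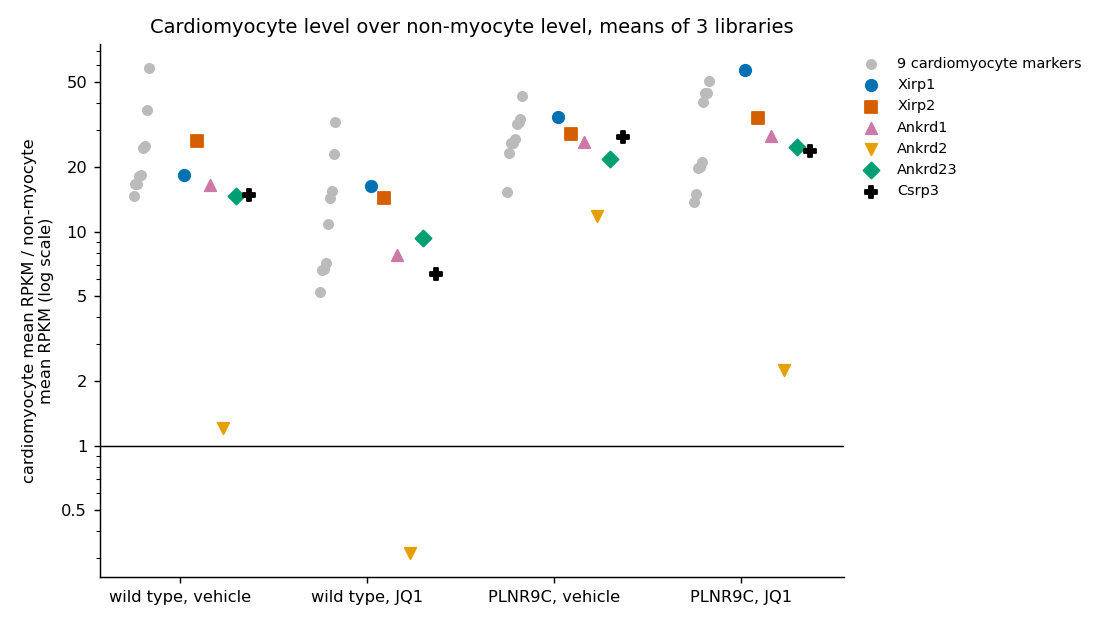
Ratio of mean RPKM in cardiomyocyte pools to that in non-myocyte pools (log axis) for the 6 genes in colour and the 9 cardiomyocyte markers in grey, for the 4 conditions. In WT vehicle 5 genes lie at 14.62 to 26.5, where the markers span 14.64 to 58.1, and Ankrd2 lies at 1.21.

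Member levels in the non-myocyte pools are given with the cardiomyocyte markers of the same pools. In WT, JQ1 pools had a marker sum of 3615 to 4257 RPKM against 1376 to 2015 RPKM with vehicle, and 7 of 9 markers rose (edgeR quasi-likelihood test, Benjamini-Hochberg adjustment). Xirp2 was at 58.8, 60.4 and 52.4 CPM with JQ1 against 26.9, 40.2 and 25.1 CPM, without overlap. Ankrd1 (147 to 159 against 31.9 to 91.0 CPM) and Csrp3 (97.3 to 131 against 35.6 to 49.7 CPM) were likewise higher, by log2 differences of 1.41 ± 0.39 and 1.45 ± 0.41. The part of the cardiomyocyte transcripts in these differences was not tested. PLNR9C vehicle pools had a lower marker sum (969.6 to 1231 RPKM), and 0 of 9 markers rose and 2 fell against WT vehicle. Xirp2 was at 106, 98.7 and 239 CPM and Ankrd1 at 204, 240 and 308 CPM in those pools, above every WT vehicle pool, with log2 differences of 2.26 ± 0.34 and 2.13 ± 0.39. Replicate 3 was again the highest of that group for all 6 genes, with a marker sum of 1051 RPKM. In cardiomyocytes the genotype differences of Xirp2 and Ankrd1 were 2.24 ± 0.37 and 2.65 ± 0.30. Non-myocyte RPKM in PLNR9C vehicle was a median 3.7% of the cardiomyocyte RPKM for the 6 genes and 3.69% for the 9 markers. The part of cardiomyocyte transcripts in the PLNR9C non-myocyte pools was not tested. PLNR9C JQ1 pools had Xirp2 at 76.7, 57.3 and 75.4 CPM, below every PLNR9C vehicle pool (log2 difference -1.08 ± 0.32), with marker sums of 676 to 2527 RPKM. Without PLNR9C vehicle replicate 3 this difference was -0.55 ± 0.18, and the genotype difference of Xirp2 was 1.75 ± 0.18. The sizes of both thus depended on that pool. Ankrd1 in the PLNR9C JQ1 pools (292, 131 and 164 CPM) overlapped PLNR9C vehicle (log2 difference -0.35 ± 0.37).

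The remaining genes overlapped between PLNR9C and WT vehicle in the non-myocyte pools. Xirp1 was at 53.5, 63.5 and 25.5 CPM in WT vehicle, 57.0 to 110 CPM in WT JQ1, 25.4, 82.4 and 191 CPM in PLNR9C vehicle and 89.6, 61.4 and 101 CPM in PLNR9C JQ1. Its genotype difference was 1.07 ± 0.63, and 0.20 ± 0.54 without PLNR9C vehicle replicate 3. Ankrd23 was at 51.7, 72.1 and 46.5 CPM in WT vehicle and 56.9, 76.3 and 78.3 CPM in PLNR9C vehicle. With JQ1 it was at 67.6 to 90.6 CPM in WT and 48.3 to 60.7 CPM in PLNR9C, the log2 differences being 0.44 ± 0.18 and -0.42 ± 0.18. Csrp3 was at 28.7, 32.2 and 58.6 CPM in PLNR9C vehicle and at 75.0, 23.2 and 31.1 CPM in PLNR9C JQ1. The 75.0 CPM were in replicate 1, which also had the highest cardiomyocyte marker sum of its group (2527 RPKM), and the JQ1 difference of Csrp3 was 0.12 ± 0.42 with it and -0.53 ± 0.30 without it.

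Some genes outside the 6 had similar patterns over the 36 ventricle and cardiomyocyte libraries (log2 CPM with a prior count of 2, centred within sample type, 14081 genes). The 3 most alike Xirp2 were AK011482 (r = 0.953), Akap2 (0.947) and Ipo4 (0.946). For Ankrd1 they were Arhgdia (0.939), Plcg2 (0.937) and Prmt2 (0.936), and for Ankrd2 Fgl2 (0.927), Fstl3 (0.914) and Cd44 (0.913). Xirp1 was most like Flnc (0.906), which encodes filamin C, then Sap30 (0.901) and Hbegf (0.884). Ankrd23 was most like Aqp8 (0.906), Synpo2l (0.899) and Igf2bp2 (0.881), and Csrp3 like Usp28 (0.87), Cryab (0.853) and Hspb8 (0.843), the last 2 encoding small heat shock proteins. Among the members the highest values were 0.847 for Xirp2 with Ankrd2 and 0.844 for Xirp2 with Ankrd1, and the lowest was 0.34 for Ankrd2 with Csrp3. The points share genotype, drug and depth, so these values describe the libraries only.

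To place the 6 genes among their partners, 88 companion genes in 6 lists were tested in the same fits, none of them a member. The lists were chosen with earlier results of these data known. Their counts and p-values are therefore no independent support for the pattern of the 6 genes. The lists were titin and Z-disc partners (18 genes), intercalated disc and Xin partners (18), LIM-domain relatives of Csrp3 (12), stretch-linked transcriptional regulators (15), known YAP and TEAD targets other than Ankrd1 (20) and other load-responsive heart muscle genes (5). All tests were edgeR quasi-likelihood tests with Benjamini-Hochberg adjustment over all genes of the sample type. Unless a sentence says otherwise, each companion gene named with a fold change kept its call under all 11 alternatives tried for it.

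With genotype at 20 weeks, 31 companions rose and 26 fell of 87 tested, beside 23.3% and 21.4% of all genes. With unscaled library sizes, an alternative added after seeing the data, 45 rose and 16 fell, and that scaling moves the median log2 difference of all genes from 0.01 to 0.27. Of 18 titin and Z-disc partners 3 rose and 10 fell (median log2 difference -0.259 against 0.01 for all genes), a balance that became 6 and 6 with unscaled library sizes. Desmin (Des), the intermediate filament around the Z-disc, rose by 1.20 ± 0.08 (adjusted p = 1.5e-09), while Ldb3, which encodes the Z-disc protein cypher, fell by 0.58 ± 0.07 (adjusted p = 4.8e-06). Of 18 disc and Xin partners 3 rose and 6 fell (median -0.07), and 9 rose and 5 fell with unscaled library sizes. Enah, which encodes the Xin-binding actin regulator Mena, rose by 1.14 ± 0.15 (adjusted p = 6.2e-05) and Flnc rose by 0.74 ± 0.15 (adjusted p = 0.0014). The desmosomal cadherin gene Dsg2 fell by 1.15 ± 0.11 (adjusted p = 1.4e-07).

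LIM-domain relatives of Csrp3 moved in both directions. Of 12 LIM-domain genes 6 rose and 3 fell at 20 weeks (median 0.226). Fhl1, whose product binds titin, rose by 2.34 ± 0.19 (adjusted p = 1.7e-06), and its relative Fhl2 fell by 2.20 ± 0.11 (adjusted p = 2.9e-10). Stretch-linked regulators gave 3 rises and 4 falls of 15 (median -0.088), or 7 and 2 with unscaled library sizes. Wwtr1, which encodes the YAP relative TAZ, rose by 0.30 ± 0.09 (adjusted p = 0.0099) and Mef2a fell by 0.80 ± 0.11 (adjusted p = 1.8e-05). YAP and TEAD targets gave 11 rises and 3 falls of 19 tested (median 0.44), or 12 and 1 with unscaled library sizes, among them Ccdc80 (1.92 ± 0.11, adjusted p = 9.8e-10) and, downward, Gadd45a. All 5 load-responsive genes rose (median 1.616), Nppa, which encodes atrial natriuretic peptide, by 6.26 ± 0.30 (adjusted p = 1.1e-07) and Myh7, the slow myosin, by 1.36 ± 0.12 (adjusted p = 1e-07). In the same ventricles 7 of 7 fibroblast markers and 6 of 6 tested macrophage markers rose and 7 of 9 cardiomyocyte markers fell (6 fell and 2 rose with unscaled library sizes). The fibroblast marker sum was 299.6 to 377 RPKM in WT vehicle and 1098 to 1348 RPKM in PLNR9C vehicle. The part of these cell types in the companion counts was not tested.

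At 8 weeks 8 companions rose and 10 fell of 87 with genotype, beside 7.86% and 6.5% of all genes, and the split was 20 to 4 with unscaled library sizes. Without WT vehicle replicate 1 there were 11 calls in place of 18. The rises were in 3 of 19 tested YAP and TEAD targets, 3 of 5 load-responsive genes and 2 disc partners, Enah and Flnc. The Enah call ended without WT vehicle replicate 1 (adjusted p 0.00093 to 0.067 over its alternatives), and the Flnc call ended under 6 of 11 alternatives (adjusted p 0.012 to 0.21). Ctgf rose by 0.79 ± 0.14 (adjusted p = 0.0042), Rcan1, a calcineurin inhibitor induced by calcineurin, by 1.05 ± 0.11 (adjusted p = 2.5e-05), and Nppa by 2.56 ± 0.42 (adjusted p = 0.0047). Fhl2 fell by 0.62 ± 0.07 (adjusted p = 1.9e-05) and Ldb3 by 0.34 ± 0.06 (adjusted p = 0.00096). The fibroblast (6 of 7) and macrophage (6 of 6 tested) markers rose and 5 of 9 cardiomyocyte markers fell at this age too.

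In cardiomyocytes 20 companions rose and 11 fell of 86 with genotype (14.3% and 11.8% of all genes), and 26 rose and 8 fell with unscaled library sizes. Des rose by 1.17 ± 0.18 (adjusted p = 0.00054) and Synpo2l, a Z-disc protein gene, by 2.75 ± 0.43 (adjusted p = 0.00092). Among Xin partners, Enah rose by 1.44 ± 0.33 (adjusted p = 0.0083). Flnc rose by 2.14 ± 0.58, a call that 5 alternatives ended (adjusted p between 0.0056 and 0.076), 4 of which each left out 1 pool (PLNR9C vehicle replicate 3 or any WT vehicle replicate). Fhl1 rose by 2.19 ± 0.34 (adjusted p = 0.00089) and Fhl2 fell by 1.29 ± 0.22 (adjusted p = 0.0011), the same directions as in ventricle. All 5 load-responsive genes rose (median 2.322), Nppa by 6.30 ± 0.49 (adjusted p = 1.4e-05). These pools held more fibroblast marker RNA in PLNR9C vehicle (238 to 367 RPKM) than in WT vehicle (51.7 to 73.3 RPKM), and 6 of 7 fibroblast markers rose. In non-myocytes 9 companions rose and 18 fell of 88 (10.3% and 8.32% of all genes), and without WT vehicle replicate 3 there were 16 calls in place of 27. In these pools 5 of 6 endothelial and 5 of 6 smooth muscle markers fell (medians -0.65 and -0.963), while 4 of 7 fibroblast and 6 of 6 tested macrophage markers rose, and their part in the counts was not tested. Ccdc80 rose by 1.11 ± 0.15 (adjusted p = 2e-04) and Crip2 fell by 0.57 ± 0.09 (adjusted p = 0.00099).

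**Figure D5:**
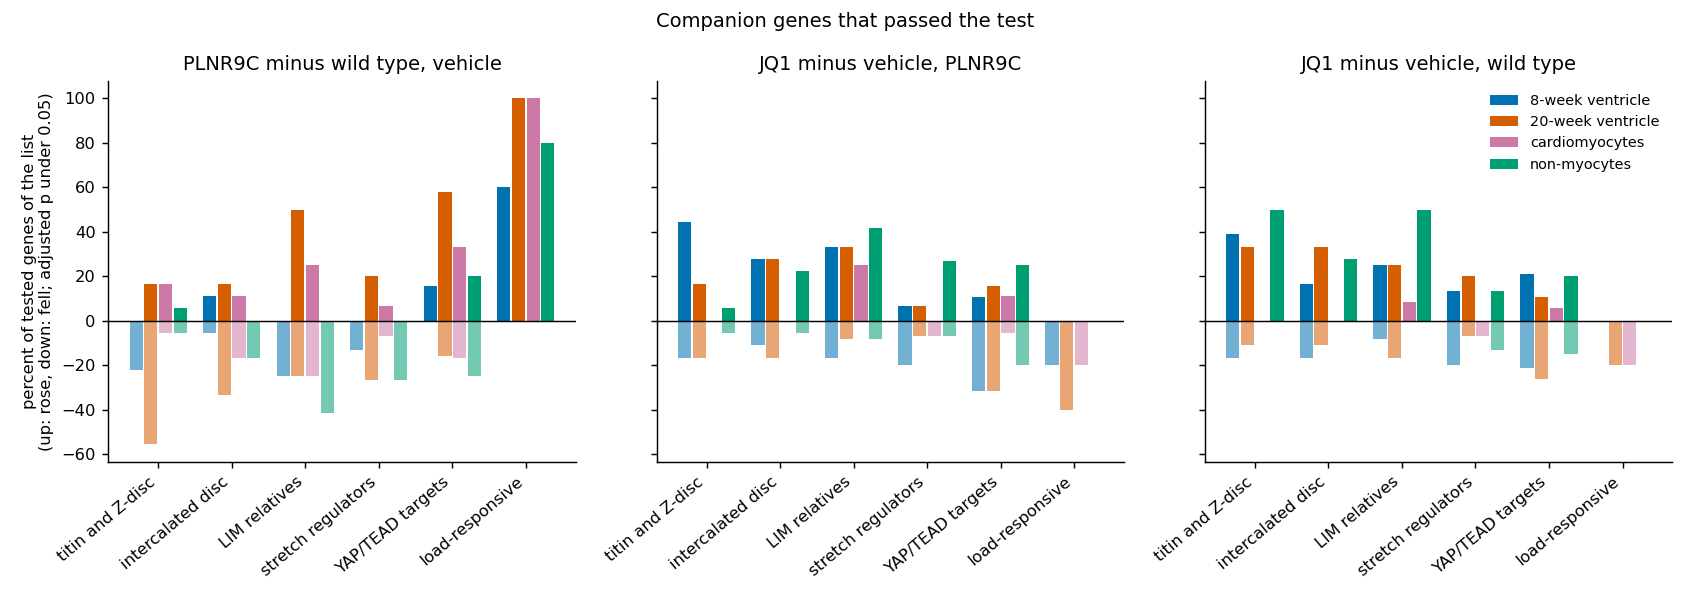
Percent of the tested companion genes in each of 6 lists that rose (upward bars) or fell (downward bars) past an adjusted p of 0.05, in 3 panels for genotype, JQ1 in PLNR9C and JQ1 in WT, with the 4 sample types side by side. All 5 load-responsive genes rose with genotype at 20 weeks and in cardiomyocytes, and none of them rose with JQ1.

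With JQ1 in PLNR9C at 20 weeks 16 companions rose and 16 fell of 87, beside 15.9% and 16.1% of all genes, and 10 rose and 23 fell with unscaled library sizes. Trim63, which encodes the titin-binding ubiquitin ligase MuRF1, rose by 0.92 ± 0.17 (adjusted p = 0.0019) and Ldb3 by 0.32 ± 0.07 (adjusted p = 0.0034). Vcl (vinculin) rose by 0.33 ± 0.08 (adjusted p = 0.0041), while Gja1, the gap junction protein connexin 43, fell by 0.60 ± 0.09 (adjusted p = 0.00014). Fhl2 rose by 0.55 ± 0.11 (adjusted p = 0.0012). Among YAP and TEAD targets, 3 rose and 6 fell of 19. Nt5e fell by 1.56 ± 0.12 (adjusted p = 8.7e-08) and Gadd45a rose by 1.57 ± 0.21 (adjusted p = 3.1e-05). Of the 5 load-responsive genes 2 fell (median -0.387), Myh7 and Acta1. The Myh7 call ended without PLNR9C JQ1 replicate 1 or 3 and without PLNR9C vehicle replicate 1 or 2 (edgeR adjusted p 0.0018 to 0.091 over its alternatives). The Acta1 call ended with the replicate block, without PLNR9C JQ1 replicate 1 and without PLNR9C vehicle replicate 3 (edgeR adjusted p 0.00013 to 0.08). In these libraries 6 of 9 cardiomyocyte markers rose with JQ1.

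At 8 weeks 20 companions rose and 17 fell with JQ1 in PLNR9C (15.5% and 17.7% of all genes), and 12 rose and 24 fell with unscaled library sizes. In the same libraries 6 of 9 cardiomyocyte markers rose and 2 of 6 endothelial markers fell. Vcl rose by 0.44 ± 0.06 (adjusted p = 7.6e-06), Trim63 by 0.73 ± 0.10 (adjusted p = 4.8e-05) and Gadd45a by 0.88 ± 0.13 (adjusted p = 3.9e-05). Synpo2l fell by 1.11 ± 0.21 (adjusted p = 0.0042). In cardiomyocytes 5 rose and 3 fell (6.14% and 4.33% of all genes), and 4 rose and 8 fell with unscaled library sizes. Without PLNR9C JQ1 replicate 1 there were 24 calls and without replicate 2 there were 5. The PLNR9C JQ1 pools differed in RNA of other cell types, with fibroblast marker sums of 240.6, 922 and 461 RPKM against 238 to 367 RPKM with vehicle, and macrophage sums of 62.4 to 198 RPKM against 65.9 to 84.5 RPKM. Endothelial sums were 88.1 to 209 RPKM against 71.2 to 93.5 RPKM. Replicate 2 was the highest in each, and the part of these cells in the counts was not tested. Acta1, the skeletal actin of loaded heart, fell there by 1.13 ± 0.22 (adjusted p = 0.0091). Non-myocytes gave 19 rises and 8 falls (16.7% and 19.5% of all genes), or 8 and 11 with unscaled library sizes.

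JQ1 in WT also changed companions in ventricle. At 20 weeks 20 rose and 13 fell (12.3% and 14.9% of all genes), or 13 and 20 with unscaled library sizes, and at 8 weeks 19 rose and 14 fell (14.3% and 15.4%), or 13 and 16. Vcl (0.41 ± 0.08, adjusted p = 0.00095, edgeR) and Gadd45a (1.03 ± 0.20, adjusted p = 0.00095, edgeR) rose at 20 weeks, and Nt5e fell by 0.93 ± 0.12 (adjusted p = 3.3e-05). WT cardiomyocytes gave 2 rises and 2 falls (1.7% and 1.93% of all genes), or 0 and 3 with unscaled library sizes. Non-myocytes of WT gave 26 rises and 5 falls (18% and 20% of all genes), or 16 and 13 with unscaled library sizes, in the pools whose cardiomyocyte markers also rose. Of the 88 companions, the JQ1 difference itself was called different between genotypes for 1, Des at 20 weeks, and for none in the other 3 sample types (edgeR interaction term). Beside these counts 0.357% of all genes were called at 20 weeks, 0.00645% at 8 weeks and 0% in both cell fractions. At an unadjusted p under 0.05 the companions numbered 1 in the 8-week and 16 in the 20-week ventricle, 8 in cardiomyocytes and 18 in the non-myocyte pools, and DESeq2 called 7 at 20 weeks, 1 in non-myocytes and 0 in the other sample types.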

How the data were processed

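The values tested were the read counts per gene and library that the authors deposited, given as reads per the file headers. Per the labels' protocols, RNA came from TRIzol extraction and libraries from Nextera kits. STAR 2.4.1b and GRCm38/mm10 are named in the submitters' processing notes with no step attached. The labels and files name no counting program, gene annotation or strand setting. A second deposited value per gene and library was treated as RPKM made by the authors, because it equals the reads over gene length and over library size, and RPKM entered no test.

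Separate fits of the 12 libraries of each sample type used edgeR 4.0.16 (R 4.3.3, limma 3.58.1), with filterByExpr by group, TMM scaling, robust glmQLFit, glmQLFTest and Benjamini-Hochberg adjustment over all genes tested, with a threshold of 0.05. The fits were also run on simulated counts that gave every gene the same spread and changed only genes with many reads. That run does not cover Ankrd2 or genes that varied widely between pools. A fold change is PLNR9C minus WT with vehicle, JQ1 minus vehicle within a genotype, or the difference of the JQ1 effects. SE in the edgeR fits is derived from the test, as the absolute log2 difference divided by the square root of its F statistic. CPM used TMM-scaled library sizes. The precision of each value is set by 3 libraries per group, and p-values measure only the spread between these libraries. Groups and replicate numbers came from the titles. Alternatives were DESeq2 size factors, DESeq2 1.42.0, no filter beyond 1 read in all, a replicate block, leaving out each library, and, added after seeing the data, unscaled library sizes. The correlation of deviations from the group means was over 0.1 for every same-numbered pair in 1 comparison, PLNR9C vehicle against WT vehicle in non-myocytes (0.124 to 0.249, against -0.187 to 0.035 for other pairs). The labels give no source for such pairing. At 8 weeks same-numbered pairs also lay above the others for PLNR9C JQ1 against PLNR9C vehicle (0.074 to 0.12, others -0.094 to 0.006). The same held for PLNR9C JQ1 against WT JQ1 at 8 weeks (0.068 to 0.075, others -0.083 to 0.015). The numbers were not treated as pairs in any main fit, and the replicate block was used only as an alternative.

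The 6 genes and the companion lists were chosen with earlier results of these data known. Text names all 6 genes, up to 2 companions per list, comparison and direction with the smallest p past the threshold, and for likeness the 3 highest correlations per gene, predicted genes left out. Promoter windows, 250 bases before a start, came from RefSeq.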

Additional observations from a re-analysis of the deposited data

Results flagged for a closer look

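The JQ1 effect on Des, which encodes desmin, differed between the genotypes in the 20-week ventricle. The log2 difference of PLNR9C minus WT was -0.554 ± 0.110 (edgeR quasi-likelihood interaction term, adjusted p = 0.039 after Benjamini-Hochberg adjustment). Of 17 alternatives 9, each leaving out 1 library, ended this call, with adjusted p between 0.00014 and 0.12 over all 17.

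Xirp2 in non-myocytes moved in opposite directions with JQ1 in the 2 genotypes, with a log2 difference of -1.976 ± 0.460 that was not past an adjusted p of 0.05 (edgeR interaction term) and was -1.454 ± 0.246 without PLNR9C vehicle replicate 3. All 3 WT JQ1 pools (52.4 to 60.4 CPM) lay above all 3 WT vehicle pools (25.1 to 40.2 CPM), and all 3 PLNR9C JQ1 pools (57.3 to 76.7 CPM) lay below all 3 PLNR9C vehicle pools (98.7 to 239 CPM). The cardiomyocyte marker sums of the same pools were 3615 to 4257 RPKM in WT JQ1, 1376 to 2015 RPKM in WT vehicle, 676 to 2527 RPKM in PLNR9C JQ1 and 969.6 to 1231 RPKM in PLNR9C vehicle, and their part in the difference was not tested.

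In the 20-week ventricle the JQ1 difference of Xirp2 in PLNR9C minus that in WT, -1.306 ± 0.185, was past an adjusted p of 0.05 in the same interaction term. It lay between -1.178 and -1.531 when each library was left out in turn. Xirp2 was chosen with these values known, so they describe the choice.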

How the results depend on the processing

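Precision was limited by 3 libraries per group, and for Ankrd2 by the few reads. DESeq2 size factors and no filter left every companion count within 1.5 times. DESeq2 called 7 companions in place of 1 for the interaction at 20 weeks, 17 in place of 8 for JQ1 in PLNR9C cardiomyocytes, 7 in place of 4 for JQ1 in WT cardiomyocytes and 1 in place of 0 for the interaction in non-myocytes. The replicate block gave 2 in place of 1 for the interaction at 20 weeks, left the other 15 companion counts within 1.5 times, and ended 4 of 187 calls of named companions. Same-numbered libraries correlated between -0.2 and 0.298. In the non-myocyte genotype comparison, where they deviated together, 9 companions rose and 18 fell with and without the block. Leaving out 1 library gave 11 to 20 companions for genotype at 8 weeks, 0 to 3 for the interaction at 20 weeks, 5 to 24 and 1 to 4 for JQ1 in PLNR9C and WT cardiomyocytes, and in non-myocytes 16 to 22 for genotype, 17 to 33 for JQ1 in PLNR9C (17 without PLNR9C JQ1 replicate 3) and 0 to 10 for the interaction (10 without PLNR9C JQ1 replicate 1). The cause was not tested; these fits hold fewer samples. No fold change past the threshold changed sign. Of the 6 genes' fold changes, 64 of 720 with 1 library left out and 9 of 96 with unscaled library sizes changed sign, none of them past the threshold and each within 1 SE of 0 with all libraries and TMM scaling. The larger side of the companion split turned with unscaled library sizes in 6 comparisons, as given with those counts, and with DESeq2 for genotype at 8 weeks (11 rose and 10 fell). Over all genes, DESeq2 called 11 in place of 1 for the interaction at 8 weeks, 213 in place of 57 at 20 weeks, 4 in place of 0 in cardiomyocytes and 63 in place of 0 in non-myocytes, and 847 in place of 513 for JQ1 in WT cardiomyocytes. Without a filter the interaction called 8, 127 and 2 genes at 8 weeks, at 20 weeks and in non-myocytes, and with the replicate block 92 at 20 weeks. Unscaled library sizes moved 11 of 96 fold changes of the 6 genes by more than their SE, among them, in ventricle between genotypes, Csrp3 to -0.089 at 8 weeks and to 0.244 at 20 weeks, Xirp2 to 2.656, Ankrd1 to 1.709 and Ankrd23 to 0.665. Leaving out 1 library moved 42 of 720 by more than their SE, 8 of Xirp1, 10 of Xirp2, 8 of Ankrd1, 7 of Ankrd2, 4 of Ankrd23 and 5 of Csrp3.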
